A study of Homo sapiens with 4 samples.

Results

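The genes described here encode nuclear subunits of respiratory complexes I to IV, together with cytochrome c (CYCS) and the supercomplex factor COX7A2L. They were chosen by name: a row of the value table belonged if its annotated gene symbol was one of 55 listed subunits. All 55 had exactly 1 row each, out of 17687 gene symbols and 21448 transcript clusters, the array's probe sets for single loci. By complex, 32 belonged to complex I, 3 to complex II, 8 to complex III and 10 to complex IV. Another 8 subunits of the same complexes were not analysed here.

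Total RNA of SUIT2 cells was measured on 4 whole-transcript arrays. In the fb-PMT group (n = 2 arrays), cells had 24 h of fb-PMT at 30 µM. In the control group (n = 2 arrays), cells had phosphate-buffered saline of pH 7.4 (labelled untreated) for as long. Both groups grew in RPMI medium with serum and carried no genetic change named in the labels. fb-PMT is a thyroid hormone analog that targets the hormone's receptor site on integrin αvβ3, and the series asks how it affects genes that mitochondria of cancer cells need. The labels do not say whether replicates came from separate cultures, so p-values measure the spread between these arrays, which may be technical. They call the cells glioblastoma, whereas the SUIT-2 line was derived from a pancreatic ductal adenocarcinoma. The epithelial markers KRT8, KRT18, KRT19 and EPCAM had log2 values of 15.09 to 16.45 on the 4 arrays, and the glial markers GFAP and OLIG2 lay below the negative controls on all of them. A value is called above the negative controls where it exceeds the 95th percentile of the 612 negative control probe sets on its array. In bulk RNA, fewer cells and less RNA per cell cannot be told apart.

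The respiratory chain sits in the inner mitochondrial membrane and passes electrons from NADH and succinate to oxygen. Complexes I and II feed ubiquinone, complex III passes the electrons on to cytochrome c, and complex IV (cytochrome c oxidase) reduces oxygen. Complexes I, III and IV pump protons, and the gradient drives ATP synthase. Complex II is also the succinate dehydrogenase of the citrate cycle and is built from nuclear-encoded subunits alone, while complexes I, III and IV join nuclear subunits to mitochondrially encoded ones. The transcription factors NRF1, GABP and YY1 are known to act on many of these nuclear genes.

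No subunit gene passed the test for a difference between the groups, and most differences were small. Of the 55 genes, 37 were higher with fb-PMT (67.3%) and 18 lower. Higher values were found in 47.3% of all 21448 transcript clusters and 51.1% of the 8696 above the negative controls on all 4 arrays. Of the 55 genes, 28 differed by less than 0.1 on the log2 scale. So did 6584 of all 21448 transcript clusters and 3058 of the 8696 above the negative controls on all 4 arrays. The median log2 difference was 0.057, against -0.017 over all 21448 transcript clusters and 0.0060 over the 8696 that lay above the negative controls on all 4 arrays. Across genes the differences had an SD of 0.156, against 0.294 in those 8696 and 0.136 in the 16 measured ATP synthase genes. In limma's test 0 of 55 passed an adjusted p of 0.05, a threshold that 0.0979% of all transcript clusters passed. At an unadjusted p under 0.05, 1 subunit gene was higher (5.7% of all transcript clusters) and 0 were lower (5.49% of all).

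The intervals rest on the spread between these arrays, which may be technical, so they do not bound differences between separate cultures. On simulated data, with variances drawn from the fit over all transcript clusters, 6.72% of 2-fold changes were recovered. The median SE was 0.156 in the 55 genes and 0.175 over all, so that share is not specific to these genes. In 54 of 55 genes the 95% interval of the difference, not adjusted for the number of genes, excluded a 2-fold change in either direction. The same held for 18699 of all 21448 transcript clusters and for 8217 of the 8696 above the negative controls on all 4 arrays. In 44 of the 55 it also excluded a 1.5-fold change, as it did in 8264 of the 21448 and 4622 of the 8696. The subunit gene that was the exception at 2-fold was NDUFS7. With 2 arrays against 2, an exact permutation test of a single gene cannot go below a two-sided p of 0.333, so only the fit over all transcript clusters was used.

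**Figure D1:**
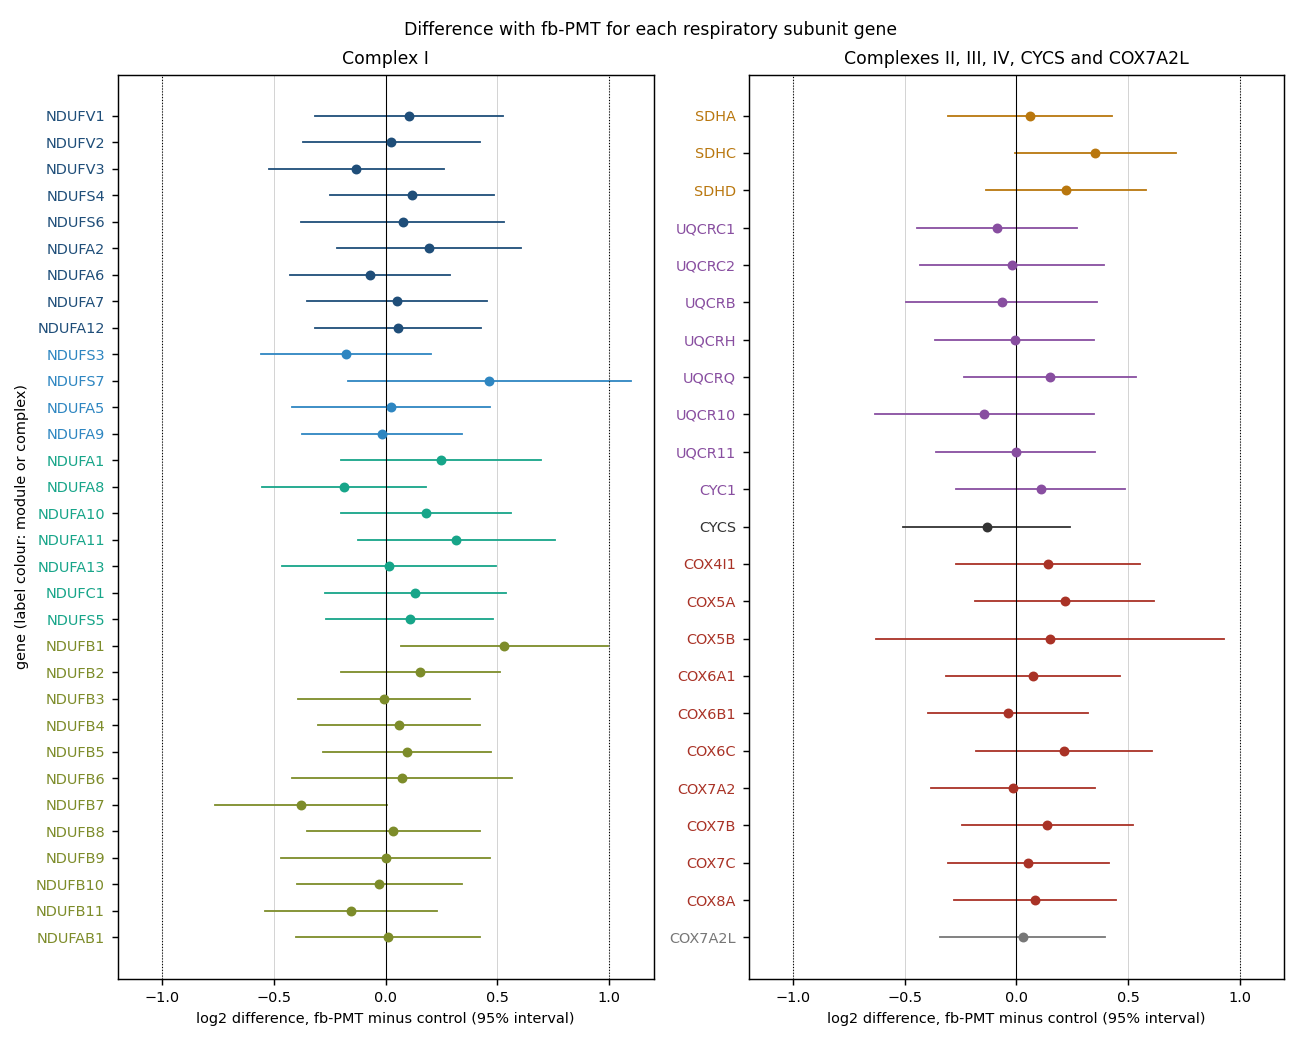
Log2 difference (fb-PMT minus control) of each of the 55 genes on the horizontal axis, with its 95% interval from limma's fit as a line and dotted lines at a 2-fold change. Complex I is on the left and the other genes are on the right, with label colours for modules or complexes; NDUFB1 is the one gene whose interval lies wholly above 0, and the interval of NDUFS7 alone crosses a dotted line.

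Counting arrays rather than p-values, in 17 genes the lower fb-PMT array exceeded the higher control array (30.9%), where 20.2% of all transcript clusters did. Another 9 genes had both below (16.4%), where 22.3% of all did. Among the 8696 transcript clusters above the negative controls the shares were 26.4% and 23.1%. The groups of the remaining 29 genes overlapped.

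**Figure D2:**
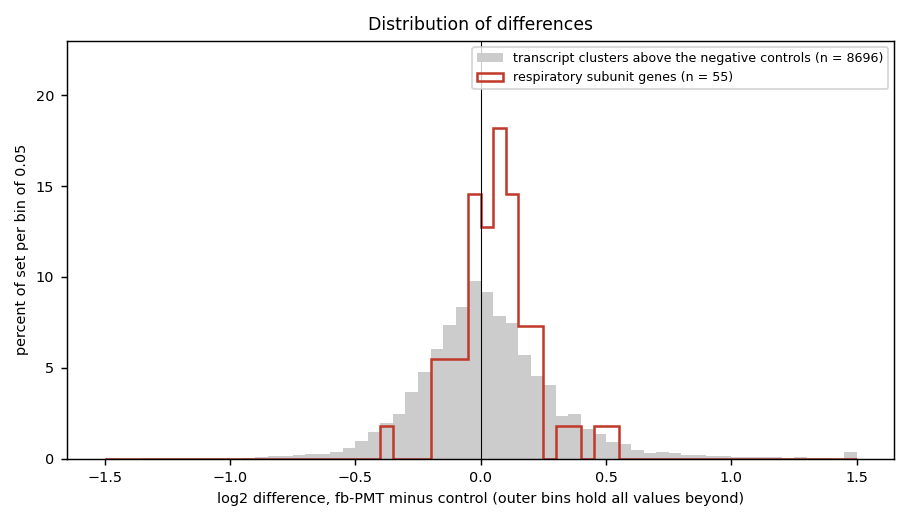
Percent of genes in each bin of 0.05 log2 units of the difference (fb-PMT minus control), for the 55 subunit genes (line) and the 8696 transcript clusters above the negative controls (grey). The subunit genes lie between -0.38 and 0.53, with an SD of 0.156, against 0.294 in the grey set and 0.136 in 16 ATP synthase genes (not drawn).

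The fb-PMT arrays did not carry the shift equally. For each gene, the 4 values were expressed as deviations from their mean. Over the 55 genes the median deviation was -0.040 and -0.0080 on control replicates 1 and 2, -0.017 on fb-PMT replicate 1 and 0.080 on fb-PMT replicate 2. The first fb-PMT array thus lay between the control arrays, and the second above all others. On fb-PMT replicate 2, 43 of 55 genes were above their value on replicate 1 (78.2%, against 48.9% of all transcript clusters), and 30 of 55 had their highest value of the 4 arrays there (54.5%, against 23.2%). Without fb-PMT replicate 2 the median difference became 0.012, with 29 genes higher and 26 lower. Without fb-PMT replicate 1 it became 0.115, with 42 higher and 13 lower. Renewed quantile normalization gave a median of 0.028, with 32 higher and 23 lower.

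**Figure D3:**
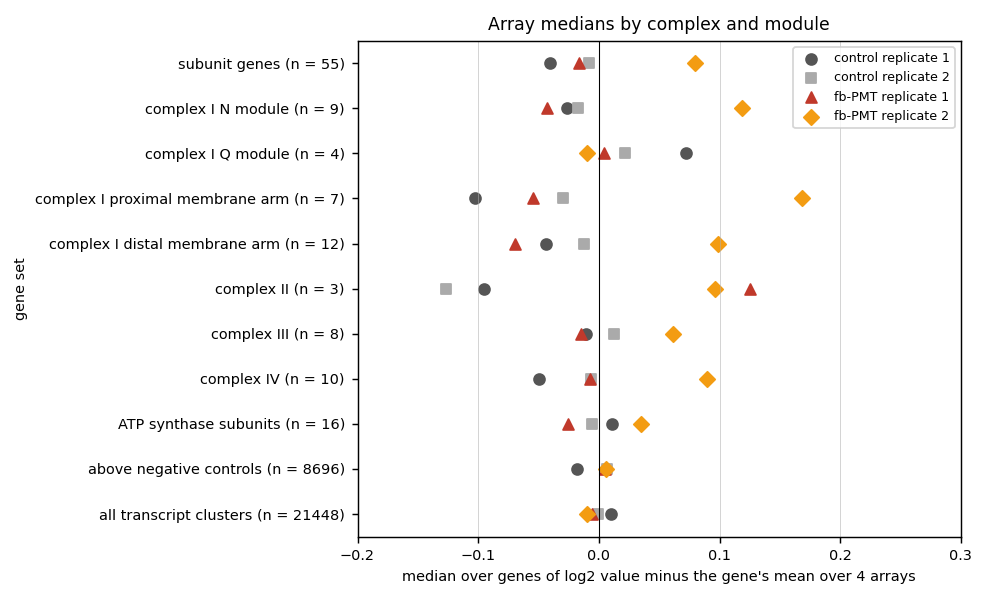
Median over the genes of each set of the deviation from the gene's own mean (log2 units, horizontal axis), 1 point per array. In the set of 55, fb-PMT replicate 2 lies at 0.080 and the other 3 arrays at or below -0.0080; in complex II the lower fb-PMT point lies above the higher control point.

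The largest differences in either direction belonged to the distal membrane arm of complex I, the part that carries proton channels. NDUFB1, a small single-pass accessory subunit there (TC1400009998.hg.1), had control log2 values of 12.72 and 12.70 and fb-PMT values of 13.04 and 13.44. The groups did not overlap; the control pair lay close together and the fb-PMT pair further apart. The log2 difference was 0.53 (SE 0.19, 95% interval 0.067 to 0.994, 1.44-fold), with an unadjusted p of 0.0313 and an adjusted p of 0.405. Leaving out fb-PMT replicate 2 gave 0.33, and leaving out replicate 1 gave 0.73.

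NDUFB7, an accessory subunit that faces the intermembrane space (TC1900009828.hg.1), differed in the other direction. Its arrays read 10.02 and 9.96 in the control group and 9.51 and 9.71 in the fb-PMT group, with no overlap. The difference was -0.38 (SE 0.16, 1.30-fold lower), which did not pass (adjusted p = 0.453). In the same arm NDUFB2 had the tightest replicates of all 55 genes, at 11.09 and 11.09 against 11.24 and 11.25. Its difference of 0.16 (SE 0.14) exceeded the spread of its own replicates but did not pass limma's test (adjusted p = 0.733).

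The stretches just before the starts of 3 genes are shown for the genes with the largest difference in each direction and for the complex II gene SDHD, whose values are given further on. Sequences are from RefSeq on GRCh38.p14 and hold the 250 bases before the annotated start, 5′ to 3′ on the gene's strand. They are chr14:92121707-92121956 on the minus strand for NDUFB1, chr19:14572067-14572316 on the minus strand for NDUFB7 and chr11:112086623-112086872 on the plus strand for SDHD. Capitals mark matches to any of the motifs listed after them.
NDUFB1: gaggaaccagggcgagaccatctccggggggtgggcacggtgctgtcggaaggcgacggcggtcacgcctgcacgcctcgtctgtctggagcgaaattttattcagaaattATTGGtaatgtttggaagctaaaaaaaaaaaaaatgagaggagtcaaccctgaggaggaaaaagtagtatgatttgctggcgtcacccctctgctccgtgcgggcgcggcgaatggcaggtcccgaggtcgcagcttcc
NDUFB7: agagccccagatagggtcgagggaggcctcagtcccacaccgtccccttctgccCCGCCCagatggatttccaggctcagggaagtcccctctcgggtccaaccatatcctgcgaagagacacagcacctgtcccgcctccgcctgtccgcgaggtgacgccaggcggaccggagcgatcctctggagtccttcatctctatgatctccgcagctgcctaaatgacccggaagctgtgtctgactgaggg
SDHD: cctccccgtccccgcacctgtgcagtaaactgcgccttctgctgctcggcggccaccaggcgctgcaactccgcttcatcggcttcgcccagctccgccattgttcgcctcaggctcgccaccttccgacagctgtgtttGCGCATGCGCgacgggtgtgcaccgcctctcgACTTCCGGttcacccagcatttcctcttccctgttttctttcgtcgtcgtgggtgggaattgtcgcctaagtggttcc
In SDHD the first capitals hold GCGCATGCG, beginning 110 bases before the start, and its reverse complement CGCATGCGC, which overlaps it. The second are ACTTCCGG, the reverse complement of CCGGAAGT, 78 bases before it. NDUFB1 had a CCAAT box in reverse (ATTGG) 139 bases before the start. NDUFB7 had an Sp1 match in reverse (CCGCCC) 196 bases before it.

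Motifs were searched on both strands in windows from 250 bases before to 50 after the start, which RefSeq's table gave for 48 of the 55 genes and for 15842 protein-coding genes in all. A gene with several listed starts counted if any window held the motif. The NRF1 core GCGCANGCG was in 15 of 48 subunit promoters (31.2%) and in 12.5% of all. Its strict form GCGCATGCG, contained in it, was in 7 (COX6A1, NDUFA5, NDUFA8, NDUFB4, NDUFS6, NDUFS7 and SDHD; 14.6%) and in 3.11% of all. The ETS motif that GABP binds, CCGGAAGT, was in 7 (14.6%, against 6.97%). The YY1 motif AAGATGGCG was in 7 (14.6%, against 3.21%), namely NDUFA6, NDUFA7, NDUFA9, NDUFB8, NDUFS4, NDUFS7 and UQCRC1. Of the other motifs, GGGCGG (Sp1) was in 60.4% against 64.3%, CCAAT in 33.3% against 42.1%, TATAAA in 10.4% against 12.4% and the CREB motif TGACGTCA in 4.17% against 3.0%. A match describes the sequence and shows no binding. The median log2 difference was 0.057 in the 15 genes with the NRF1 core and 0.050 in those without it, and 0.035 in the 7 with the YY1 motif.

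The other genes of the distal arm had small values. Of its 12 genes 8 were higher and 4 lower, with a median difference of 0.023, and NDUFB9 was at 14.14 in both groups. The median deviation in this arm was -0.069 on fb-PMT replicate 1, below both control arrays, and 0.099 on replicate 2. NDUFB11, an X-linked subunit, was lower by value on both fb-PMT arrays (12.16 and 11.97 against 11.89 and 11.93). The difference was -0.16 (SE 0.15, adjusted p = 0.756), and -0.060 without control replicate 1. NDUFAB1, the mitochondrial acyl carrier protein, which is also a subunit of complex I, had a difference of 0.011.

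In the N module, the tip of complex I where NADH is oxidised, 7 of 9 genes were higher, with a median of 0.057. The fb-PMT arrays differed here too, with 8 of 9 genes above replicate 1 on replicate 2. The median deviation was -0.026 and -0.018 on control replicates 1 and 2, -0.043 on fb-PMT replicate 1 and 0.118 on replicate 2. NDUFV1, which carries the flavin that takes up the electrons, had values of 13.24 and 13.55 in the control group and 13.51 and 13.49 with fb-PMT. The groups overlapped, the difference was 0.10 (SE 0.17, adjusted p = 0.861), and it turned to -0.047 without control replicate 1. NDUFA2, an accessory subunit with a thioredoxin-like fold, had the highest difference of the module. Its values were 12.02 and 11.85 against 12.02 and 12.25, which overlap (difference 0.19, SE 0.17, adjusted p = 0.705, and 0.082 without fb-PMT replicate 2). NDUFV3 had the lowest, at 12.50 and 12.52 against 12.27 and 12.49 (difference -0.13, SE 0.16, adjusted p = 0.802). In NDUFV3 the lower value rests on fb-PMT replicate 1, since replicate 2 came within 0.01 of the nearest control array.

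The Q module, which hands electrons to ubiquinone, had 2 of 4 genes higher and 2 lower. NDUFS7, which holds the last iron-sulfur cluster before ubiquinone (TC1900006528.hg.1), had values of 7.29 and 7.86 in the control group and 7.83 and 8.26 with fb-PMT. One control array was below the negative controls' 95th percentile of 7.38, and the groups overlapped. The difference of 0.46 (SE 0.26, 95% interval -0.169 to 1.10) did not pass (adjusted p = 0.56). It was 0.18 without control replicate 1 and 0.25 without fb-PMT replicate 2. Without control replicate 2 it was 0.75, and without fb-PMT replicate 1 it was 0.68. NDUFS3, a core subunit, lay at 10.92 and 10.74 against 10.69 and 10.62. Its groups did not overlap, with a difference of -0.18 (SE 0.15, adjusted p = 0.707) that was -0.092 without control replicate 1.

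Of the 7 genes of the proximal membrane arm, 6 were higher, with a median of 0.13. In 4 of the 7 (57.1%) both fb-PMT arrays lay above both control arrays. That held for 20.2% of all transcript clusters and 26.4% of those above the negative controls. The median deviation was -0.055 on fb-PMT replicate 1, between the control arrays, and 0.168 on replicate 2. NDUFA11, which helps to hold the membrane arm together, had the highest difference. Its values were 12.68 and 12.88 in the control group and 12.95 and 13.24 with fb-PMT, with no overlap (difference 0.32, SE 0.18, 1.25-fold, adjusted p = 0.567). Without fb-PMT replicate 2 it was 0.17, below the 0.25 of NDUFA10. NDUFA1, an X-linked subunit needed for assembly, read 11.42 and 11.31 against 11.43 and 11.79. There the first fb-PMT array exceeded the higher control array by little, and the difference of 0.25 (SE 0.18, adjusted p = 0.656) was 0.069 without the second. NDUFA8, a twin-cysteine subunit of the intermembrane side, was the 1 lower gene, at 9.79 and 9.85 against 9.58 and 9.69 (difference -0.19, SE 0.15, adjusted p = 0.68).

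**Figure D4:**
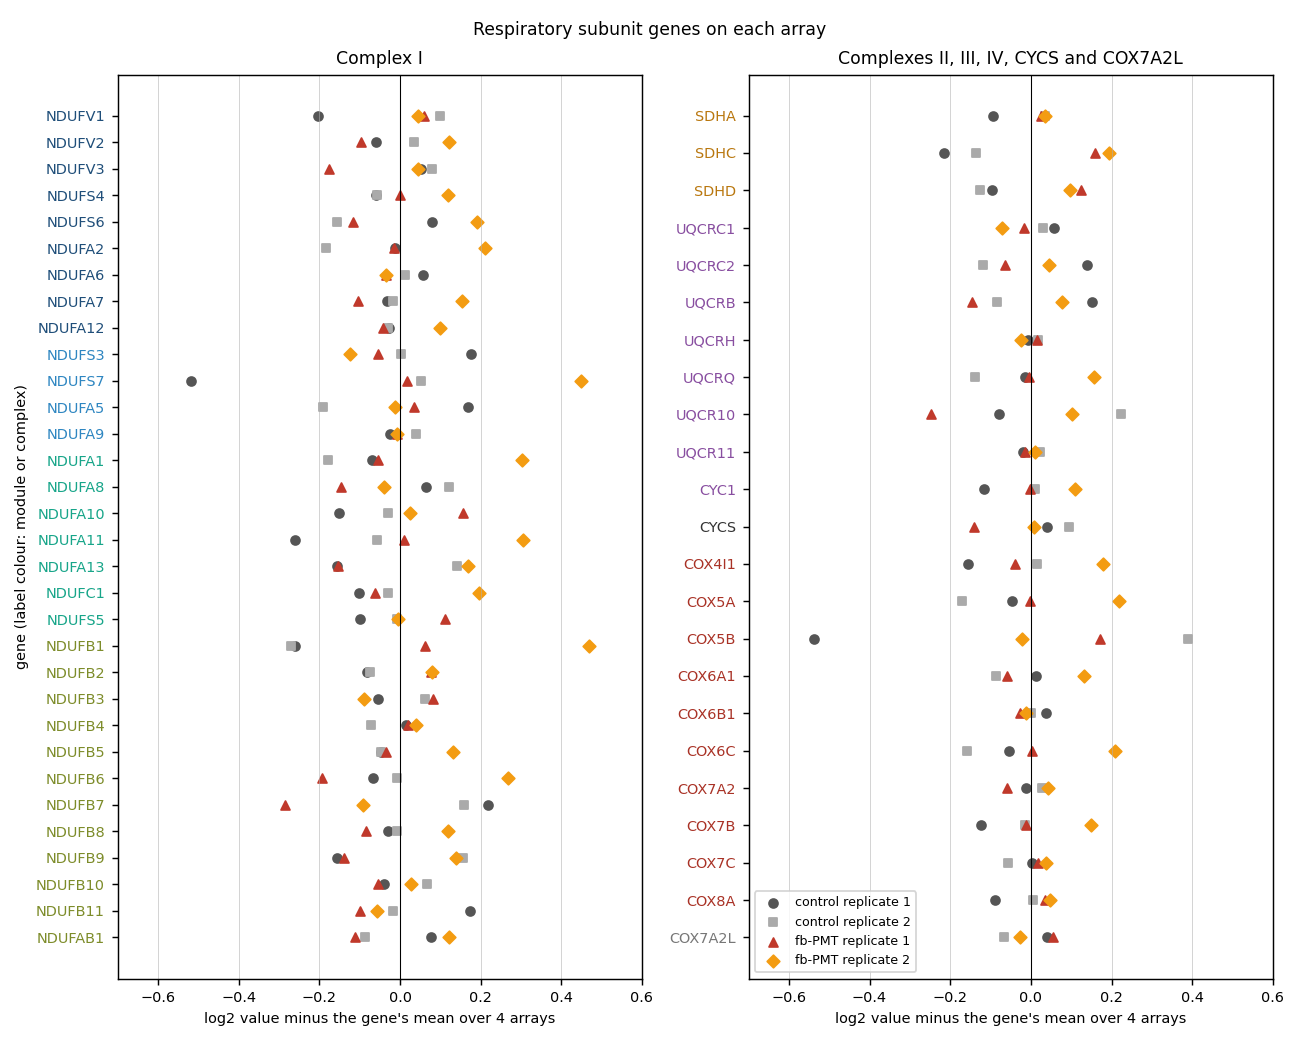
Log2 value minus the gene's own mean over the 4 arrays (horizontal axis) for each of the 55 genes, 1 symbol per array, with complex I on the left and the other genes on the right. SDHC and SDHD show 2 tight, separate pairs with fb-PMT on the right, whereas COX5B shows 1 control array far from the rest. In NDUFS7 control replicate 1 lies far to the left (-0.52) and fb-PMT replicate 2 far to the right (0.45).

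In complex II all 3 measured genes were higher. In 2 of the 3 (66.7%), the membrane anchors, both fb-PMT arrays lay above both control arrays. That held for 20.2% of all transcript clusters and 26.4% of those above the negative controls. SDHC, which with SDHD holds the ubiquinone site and heme (TC0100010347.hg.1), had values of 12.11 and 12.19 in the control group and 12.49 and 12.52 with fb-PMT. SDHD (TC1100013091.hg.1) read 12.61 and 12.58 against 12.83 and 12.81. In both genes the pairs were tight and the gap between groups was larger than either pair's spread. The differences were 0.35 for SDHC (SE 0.15, 1.28-fold, unadjusted p = 0.0541, adjusted p = 0.454) and 0.22 for SDHD (SE 0.14, 1.17-fold, adjusted p = 0.612), so neither passed. Leaving out any 1 array kept SDHC between 0.31 and 0.39 and SDHD between 0.21 and 0.24. SDHA, the flavin-carrying catalytic subunit, was at 12.10 and 12.23 against 12.22 and 12.23, with overlap (difference 0.060, SE 0.15). The median of the 3 genes was 0.22. Complex II was singled out after its values were seen.

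Complex III had 2 of 8 genes higher and 6 lower, with a median of -0.014. UQCRQ, a small subunit of the membrane part, had the highest difference, at 13.69 and 13.56 against 13.69 and 13.86 (0.15, SE 0.16, adjusted p = 0.765, and 0.071 without fb-PMT replicate 2 or 0.089 without control replicate 2). UQCR10, another small subunit, had the lowest, at 12.57 and 12.88 against 12.41 and 12.76. Its pairs of replicates lay further apart than its group means (-0.14, SE 0.20, adjusted p = 0.833). CYC1, the heme-bearing cytochrome c1, was at 13.15 and 13.27 against 13.26 and 13.37, with overlap (0.11, SE 0.15, and 0.051 without fb-PMT replicate 2 or 0.045 without control replicate 1). The core subunit UQCRC1, at 13.06 and 13.04 against 12.99 and 12.94, did not overlap but differed by only -0.088 (SE 0.14, adjusted p = 0.865). The median turned to 0.032 without fb-PMT replicate 1, with 6 genes higher and 2 lower. It was 0.012 without control replicate 1 (4 higher, 4 lower) and 0.0056 without control replicate 2 (5 higher, 3 lower). Without fb-PMT replicate 2 it was -0.038 (3 higher, 5 lower), so the direction depended on which array was left out.

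CYCS, the soluble carrier between complexes III and IV that also starts caspase activation when it leaves mitochondria, was at 14.89 and 14.95 in the control group and 14.71 and 14.86 with fb-PMT. The fb-PMT arrays were both lower, by -0.13 in the mean (SE 0.15, adjusted p = 0.79), and by -0.060 without fb-PMT replicate 1. CYCS has many processed pseudogenes, as do several of these subunits, and probes that also bind such copies would not tell them apart.

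Complex IV had 8 of 10 genes higher and a median difference of 0.11. In 5 of the 10 (50%) both fb-PMT arrays lay above both control arrays. That held for 20.2% of all transcript clusters and 26.4% of those above the negative controls. Without fb-PMT replicate 2 the median was 0.050. COX5A, a matrix-side subunit, read 12.80 and 12.67 against 12.84 and 13.06 (0.22, SE 0.16, adjusted p = 0.665). COX6C, a single-pass membrane subunit, read 13.06 and 12.96 against 13.12 and 13.32 (0.21, SE 0.16, adjusted p = 0.665). In both, the first fb-PMT array lay just above the control arrays and the second further up, and the differences without the second were 0.11 and 0.11. COX4I1, the subunit through which ATP inhibits the enzyme, overlapped between groups at 11.85 and 12.02 against 11.97 and 12.19 (0.14, SE 0.17, and 0.033 without fb-PMT replicate 2 or 0.055 without control replicate 1). COX6B1 had the lowest difference of the complex, -0.038 (SE 0.14).

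COX5B, the zinc-binding subunit, had the widest replicates of all 55 genes. Its control arrays read 10.71 and 11.64, and the fb-PMT arrays, at 11.42 and 11.23, lay between them. The difference of 0.15 had an SE of 0.31 and was 0.61 without control replicate 2 and -0.31 without control replicate 1. COX7A2L, which links complexes III and IV into a supercomplex, was at 14.47 and 14.37 against 14.49 and 14.41 (0.028, SE 0.15). For both genes the data give no direction.

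**Figure D5:**
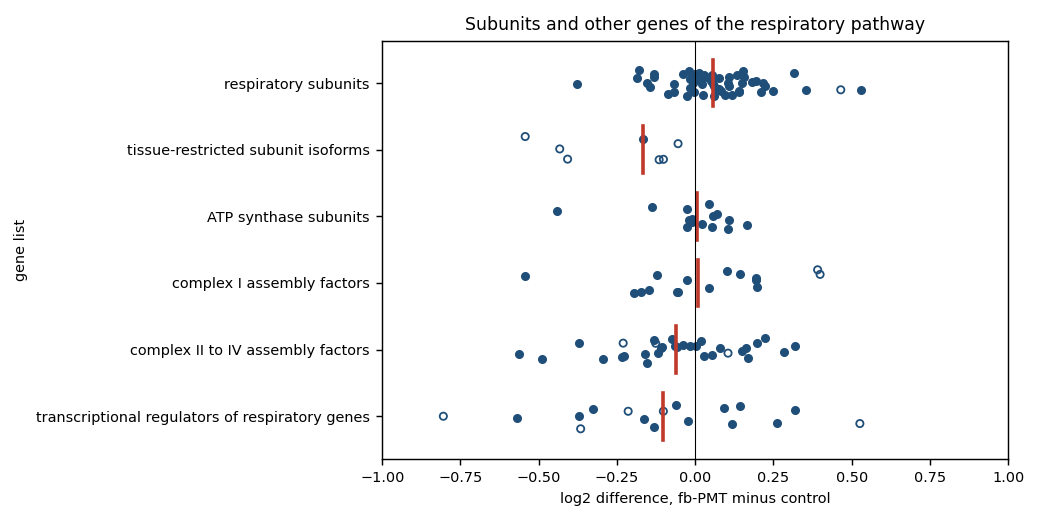
Log2 difference (fb-PMT minus control, horizontal axis) of each gene in the subunit set and in 5 other lists, with filled points for genes above the negative controls on all 4 arrays, open points for the others and red bars for list medians. The subunit median is 0.057 and that of the regulators -0.10, with POLRMT lowest at -0.80.

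Other genes of the pathway were read from lists chosen with earlier results of these data known. In each list 0 members passed an adjusted p of 0.05 in limma's test. Measured were 16 of 18 listed ATP synthase genes, 32 of 35 assembly factors of complexes II to IV, 7 of 8 isoforms and 17 of 19 regulators. At an unadjusted p under 0.05, which 5.7% of all transcript clusters passed upward and 5.49% downward, there were 0 of 16 ATP synthase genes, 1 higher and 1 lower of 16 complex I assembly factors (NUBPL and NDUFAF4), 1 lower of 32 factors of complexes II to IV (COA7), 1 lower of 7 isoforms (COX7A1) and 3 lower of 17 regulators (PPRC1, ESRRA and POLRMT). NUBPL was above the negative controls on 0 of 4 arrays and ESRRA on 1 of 4. Of the 16 measured ATP synthase genes 8 were higher and 8 lower (median 0.0066), from ATP5F1C, the central stalk subunit gamma (0.16, adjusted p = 0.716), to ATP5F1D, its neighbour delta (-0.44, adjusted p = 0.489). On fb-PMT replicate 2, 12 of these 16 were above replicate 1. Complex I assembly factors were 8 higher and 8 lower (median 0.0089), with NDUFAF3 at 0.20 and NDUFAF4 at -0.54 (adjusted p = 0.392). Assembly factors of complexes II to IV had 13 of 32 higher (median -0.062), with COA5 at 0.32 and COA7, a factor for complex IV, at -0.56 (adjusted p = 0.393).

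All 7 measured genes of tissue-restricted isoforms were lower in value (median -0.17), but 6 of them were below the negative controls on at least 1 array. COX4I2 read 3.37 to 4.02 and COX7A1 5.22 to 5.73, below the negative controls on all 4 arrays. Their common counterparts COX4I1 and COX7A2 were above them on all 4. UQCRHL, an intronless copy of UQCRH, was the 1 isoform above them on all 4 arrays, at 9.14 and 9.37 against 9.18 and 9.00. UQCRH itself differed by -0.0087, and probes that bind both copies would not separate them.

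Among transcriptional regulators of these genes, 6 of 17 were higher and 11 lower, with a median of -0.10. YY1 and GABPB1 were listed but had no row under their symbols. PPRC1, a PGC-1-related coactivator that acts through NRF1, had values of 9.33 and 9.45 in the control group and 8.92 and 8.72 with fb-PMT. Its groups did not overlap, and its difference of -0.57 (SE 0.16, 1.48-fold lower) did not pass (adjusted p = 0.346). NRF1 was at 7.85 and 7.63 against 8.04 and 7.73 and GABPA at 8.66 and 8.63 against 8.80 and 8.67, differences of 0.14 and 0.091. GABPB2, a partner of GABPA, had the highest difference of the detected regulators (0.32, adjusted p = 0.589). PPARGC1A, the founding member of the PGC-1 family, was below the negative controls on all 4 arrays. POLRMT, the RNA polymerase of mitochondria, read 7.50 and 8.19 against 7.21 and 6.87 (-0.80, adjusted p = 0.392), with 1 fb-PMT array below the negative controls.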

How the data were processed

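The authors deposited log2 values, 1 per probe set, computed by RMA; the submitters' processing notes name Transcriptome Analysis Console 4.0.1.36. Which RMA variant and genome build were used is not given in the sources used here. RMA normalizes between arrays, so a shift common to most genes cannot be seen. The 2903 control probe sets were left out. A gene counts as above the negative controls on an array above their 95th percentile there (7.15 to 7.38).

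All 21448 transcript clusters were fitted in limma 3.58.1 under R 4.3.3 (lmFit and eBayes without trend or covariate), fb-PMT minus control, two-sided, Benjamini-Hochberg adjusted over all of them, threshold 0.05. The number of arrays limits the precision: the median SE was 0.175. On simulated data with 200 changed transcript clusters the fit recovered 6.72% of 2-fold and 86.8% of 4-fold changes.

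Members, modules and lists were chosen with earlier results of these data known. The genes named were set by rule: members with an unadjusted p under 0.05, the highest and lowest of each complex or module, 13 fixed genes, and the extremes of each other list above the negative controls. Other genes (NDUFA1, NDUFA10, NDUFC1, NDUFB2, NDUFB9, NDUFB11, NDUFAB1, COX5B, COX7A2, UQCRH, the remaining isoforms, NUBPL, ESRRA, NRF1, GABPA, PPARGC1A and POLRMT) were chosen after their values were seen. Alternatives were a replicate block, an intensity trend (also robust), filters on dim transcript clusters, quantile normalization again, median centring, other thresholds and leaving out each array.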

Additional observations from a re-analysis of the deposited data

How the results depend on the processing

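In each alternative fit on all 4 arrays 0 of the 55 genes passed an adjusted p of 0.05. In the fit as reported 0 passed 0.10 or 0.20. Few transcript clusters passed 0.05 in the alternative fits either. The shares over all tested were 1.88% with the intensity trend, 1.84% with its robust form and 0.446% without the lowest 30%. They were 3.09% with those above the negative controls on at least 2 arrays, 0.0979% with median centring and 0.0793% with renewed quantile normalization. The count of 0 lies near these shares. The smallest adjusted p of a named gene was 0.0714 (NDUFB1 with an intensity trend) and, with 1 array left out, 0.312. The number with an unadjusted p under 0.05 and higher was 1 as reported and 2 with the replicate block (5.66% of all transcript clusters tested). It was 2 without the lowest 30% of transcript clusters (7.67%) and 2 with those above the negative controls on at least 2 arrays (11.3%). With the intensity trend it was 4 (NDUFB1, SDHC, SDHD and NDUFA11, against 6.86% of all), and 4 with its robust form (6.76%). The number lower was 0 as reported and 1 with the intensity trend, its robust form, either filter or renewed quantile normalization (5.17% to 7.43% of all tested), namely NDUFB7. The replicate numbers do not pair the arrays by any label, and residuals of equal numbers correlated with r = 0.042. With the replicate block 1 transcript cluster passed the threshold over all genes, against 21 without it.

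Of the 22 named genes 18 kept their sign under every alternative. The 22 include the extremes of each complex or module, so this share does not describe all 55 genes. Within the 22, COX7A2L ran from -0.026 to 0.082 and NDUFV1 from -0.047 to 0.26 with 1 array left out. SDHA ran from -0.0046 to 0.12 and UQCR10 from -0.32 to 0.030. Outside the 22, genes such as COX5B (-0.31 to 0.61), NDUFB9 (-0.16 to 0.16), NDUFA5 (-0.16 to 0.20) and NDUFB6 (-0.16 to 0.30) also turned sign with 1 array left out. The medians then ran from 0.012 to 0.115 over all 55 genes, from -0.015 to 0.131 in complex I, from -0.038 to 0.032 in complex III and from 0.050 to 0.142 in complex IV. Complex II went from 0.22 to 0.19 with renewed quantile normalization. The cause of these shifts was not tested. Averaging transcript clusters of one gene was not run, since each gene had 1. NDUFS7 (7.29 to 8.26) and NDUFC1 (7.61 to 7.91) lay near the negative controls, which limits their values.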

Other observations

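Many of these genes lie head to head with another gene. In RefSeq's promoter table (GRCh38.p14), 15 of the 48 subunit genes with an entry (31.2%) had a protein-coding gene on the opposite strand that starts within 1000 bases upstream, against 12.3% of 15842 protein-coding genes. The table is not complete. Neighbours missing from it could only raise the shares among genes with an entry. Genes without an entry were not counted and could move either share up or down. NDUFB1 starts 263 bases from CPSF2, a subunit of the mRNA cleavage machinery, whose log2 difference was 0.072 beside 0.53 for NDUFB1. UQCRQ starts 63 bases from GDF9, an oocyte growth factor, at 0.66 (adjusted p = 0.392) beside 0.15 for UQCRQ. NDUFA5 starts 170 bases from ASB15, at -0.48 (adjusted p = 0.47) beside 0.023. NDUFA7 and RPS28, a gene of the small ribosomal subunit, start 121 bases apart and differed by 0.050 and 0.026. COX4I1 and EMC8, a subunit of a membrane protein insertase, start 151 bases apart and differed by 0.14 and 0.18. None of these neighbours passed the test.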
